A study of Mus musculus with 2 samples.

Results

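Prostaglandins and leukotrienes are lipid signals that cells make from arachidonic acid. The 10 genes described here, given as a named list and making up 10 of the 27998 genes in the files, cover the main steps of that synthesis. Pla2g5 and Pla2g2d encode secreted phospholipases A2, which release fatty acids from membrane lipids. Ptgs1 and Ptgs2 encode the cyclooxygenases COX-1 and COX-2. Ptges, Ptgis and Ptgds encode the synthases that turn the cyclooxygenase product into prostaglandin E2, prostacyclin and prostaglandin D2. Alox5 encodes 5-lipoxygenase, Alox5ap the protein FLAP that presents arachidonic acid to it, and Ltc4s the enzyme that makes the first cysteinyl leukotriene. All 10 genes were found in the files and are reported, whatever their counts.

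The tissue was the abdominal aorta, cut between the left renal artery and the point where the vessel divides, from wild-type C57BL/6J mice. One group had received an intraperitoneal injection of LCWE, a Lactobacillus casei cell wall extract used to model Kawasaki disease vasculitis, and the other group received PBS. Both were sampled 2 weeks later. Each group was a single pool, of 7 aortas for LCWE and 9 for PBS, made into 1 droplet-based 3′ single-cell RNA library after enzymatic dissociation and removal of dead cells. Age and sex of the mice are not given in the labels used here. The pools carry no mark of the individual mouse, so no value below has a replicate check and no test between the groups was possible.

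The files hold 5091 LCWE cells with 42275754 unique molecular identifiers (UMIs, 1 per captured transcript) and 5386 PBS cells with 62600808. Median depth per cell was 5508 UMIs for LCWE and 11252.5 for PBS, and 8 barcodes occur in both libraries. Cells carry the authors' names in 9 broad and 25 fine classes. Levels are given as CPM, the UMIs of a gene scaled to 1e+06 UMIs of all cells of the class, with exact Poisson 95% intervals. Intervals of ratios are exact conditional binomial 95% intervals. All intervals cover counting error only, with each UMI taken as independent. They do not cover differences between cells of a class, mice, dissociations or libraries. UMIs of a gene were often concentrated in few cells, so the intervals, and the overlaps read from them, are narrower than the spread between cells would give.

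In blood vessels, COX-1 is known as the form present at rest and COX-2 as the form that inflammatory and mechanical signals induce. Prostacyclin, made by endothelium and smooth muscle, relaxes the vessel and restrains platelets. Leukotriene synthesis is known chiefly from granulocytes, monocytes, macrophages and mast cells, in which 5-lipoxygenase and FLAP act together.

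The names of the classes were checked against marker genes. The PBS class VSMC_1 held 591.9 UMIs per cell of the smooth muscle list (Myh11, Acta2, Cnn1, Tagln), and its LCWE counterpart 361.5. The class VSMC_2, which the authors group as transitional between smooth muscle and fibroblast and which has 283 LCWE cells and no PBS cell, held 234.5 smooth muscle and 403.1 fibroblast marker UMIs per cell. Blood endothelial cells (BEC) held 54.1 (LCWE) and 45.6 (PBS) UMIs of the endothelial list per cell, and lymphatic endothelial cells (LEC) held 55.4 and 99.9 of the lymphatic list. The LCWE class named Eosinophil, with 142 cells, went against its name. It held 111.2 UMIs per cell of S100a8 and 119.0 of S100a9, neutrophil genes, while Epx, Prg2 and Il5ra were at 0, Ccr3 had 2 UMIs and Siglecf 41. These cells are called below the granulocytes that the authors named eosinophils.

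Ptgs1, Ptgs2 and Ptges are shown first by the DNA upstream of their starts, since their levels differed in direction between the libraries in fibroblasts. Windows from 250 bases before to 50 bases after the start were matched in RefSeq (GRCm38.p6) for 8 of the 10 genes, and Ptgis and Alox5ap had no match. Each sequence below is the 250 bases before the start, written 5′ to 3′ on the strand of the gene, with capitals marking GC boxes (GGGCGG) and the C/EBP palindrome (TTGCGCAA), both strands searched. They lie at chr2:36230176-36230425 (plus strand), chr1:150099781-150100030 (plus strand) and chr2:30903298-30903547 (minus strand). The Ptges stretch lies inside the span annotated for that gene (30889471 to 30929863). It precedes the RefSeq start, not the 5′ end of that span.
Ptgs1: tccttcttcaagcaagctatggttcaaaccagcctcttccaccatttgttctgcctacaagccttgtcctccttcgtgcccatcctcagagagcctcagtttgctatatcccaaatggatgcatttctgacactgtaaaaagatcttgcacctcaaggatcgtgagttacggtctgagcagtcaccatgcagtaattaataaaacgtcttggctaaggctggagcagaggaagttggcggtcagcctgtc
Ptgs2: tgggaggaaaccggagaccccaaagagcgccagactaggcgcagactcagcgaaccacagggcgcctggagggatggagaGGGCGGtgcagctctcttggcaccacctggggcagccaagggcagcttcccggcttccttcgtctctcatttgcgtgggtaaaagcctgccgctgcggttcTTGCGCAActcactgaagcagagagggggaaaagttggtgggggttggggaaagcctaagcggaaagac
Ptges: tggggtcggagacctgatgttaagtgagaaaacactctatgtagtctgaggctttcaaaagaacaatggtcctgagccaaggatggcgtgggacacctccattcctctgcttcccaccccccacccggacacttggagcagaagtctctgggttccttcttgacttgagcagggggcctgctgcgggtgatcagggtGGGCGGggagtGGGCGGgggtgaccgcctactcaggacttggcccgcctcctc
The Ptgs2 stretch holds the C/EBP palindrome once and 1 GC box, the Ptges stretch holds 2 GC boxes and no palindrome, and the Ptgs1 stretch holds neither. Of the 32851 windows of 300 bases in the table, 60 (0.183%) hold the palindrome and 35.7% hold a GC box. Just after its start, at chr1:150100038-150100061, Ptgs2 has the letters ccactaCGTCACGTGgagtccgct, in which the capitals mark an E-box (CACGTG, in 7.15% of all windows) overlapping the reverse of TGACG, the core of the cyclic AMP response element (20.8% of windows). TATAAA is in none of the windows of the 8 matched genes and in 13.6% of all windows. These matches describe the letters only. The bases upstream of Ptgs1 were 48.0% G or C, against 61.6% for Ptgs2 and 59.6% for Ptges.

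**Figure D1:**
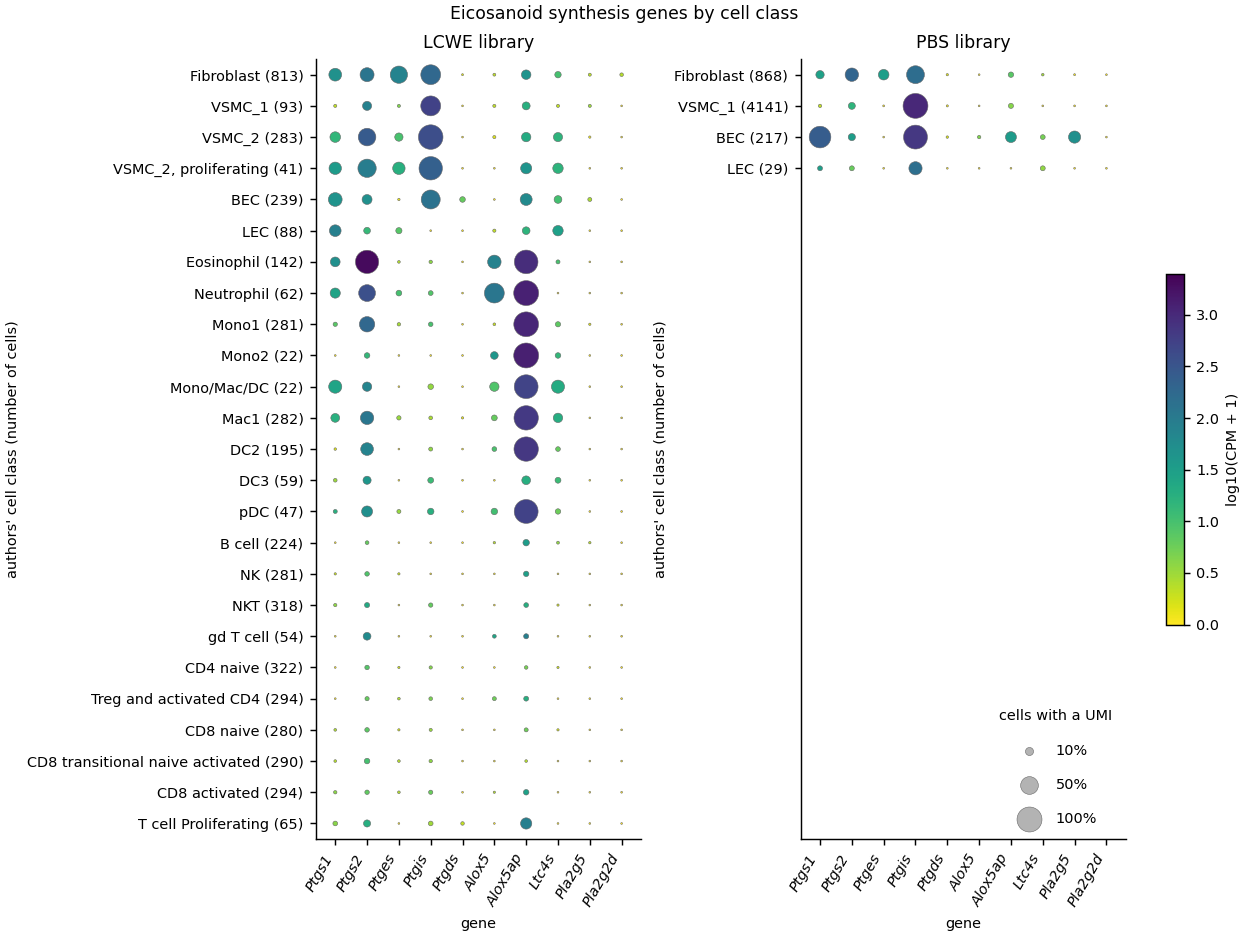
Level of each gene in every class with at least 20 cells, LCWE library on the left and PBS library on the right. Colour is log10(CPM + 1) and point area the percent of cells with at least 1 UMI. Ptgs2 is darkest in the LCWE granulocytes named Eosinophil (2032 CPM), Ptgis in PBS VSMC_1 (1059 CPM), and Alox5ap in monocytes and granulocytes.

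The cyclooxygenases were in different cells in the PBS library. Ptgs1 was mainly endothelial there. Of its 711 PBS UMIs, 60.6% were in BEC, where it reached 259 CPM (235 to 284) and 163 of 217 cells held a UMI. PBS LEC followed at 31.5 CPM (16.3 to 55.0, all 12 UMIs from 1 cell) and fibroblasts at 27.9 (23.9 to 32.5), which overlap, while VSMC_1 had 1.10 (0.84 to 1.42). Ptgs2 had another order. Fibroblasts stood first at 204 CPM (193 to 215), followed by BEC at 32.4 (24.4 to 42.3) and VSMC_1 at 14.3 (13.3 to 15.3), and fibroblasts held 59.4% of its 2087 PBS UMIs.

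In the LCWE library the BEC level of Ptgs1 was 44.4 CPM (37.1 to 52.7), with a UMI in 72 of 239 cells. LEC were at 83.6 (65.6 to 105), with 19 of 88 cells holding all 74 UMIs. The granulocytes that the authors named eosinophils (49.9), fibroblasts (49.1) and BEC overlapped in their intervals. Fibroblasts, through their number, held 51.1% of the 958 LCWE UMIs of Ptgs1. The class with most Ptgs1 per UMI was therefore BEC in PBS and LEC in LCWE, although the interval of LCWE LEC overlapped that of the next class.

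COX-2 transcripts in the LCWE library were highest in granulocytes. The cells that the authors named eosinophils had 2032 CPM of Ptgs2 (1927 to 2142), with 1386 UMIs and a UMI in 123 of 142 cells. Neutrophils followed at 368 (319 to 422), with 28 of 62 cells, and VSMC_2 at 275 (262 to 289), with 140 of 283 cells. Mono1 monocytes had 180.5 CPM (163 to 199), fibroblasts 120 (114 to 127) and Mac1 macrophages 116 (104 to 129), and only the last pair overlapped among these neighbours. T, NK and innate lymphoid cells had 11.1 CPM, with a UMI in 75 of 2198 cells, and their classes ranged from 5.35 in Treg and activated CD4 cells to 58.1 in gamma-delta T cells (14 UMIs). B cells had 5.32 CPM (4 UMIs). At an equal depth of 1600 UMIs per cell, 68.3% of the granulocytes named eosinophils, 24.2% of neutrophils, 21.2% of VSMC_2 and 1.73% of T, NK and innate lymphoid cells held a Ptgs2 UMI, against 86.6%, 45.2%, 49.5% and 3.41% unthinned. Median depths of these 4 groups were 3936, 6428.5, 19942 and 3986 UMIs, so the granulocytes named eosinophils and the lymphocytes were of like depth.

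Within a class, Ptgs2 was concentrated in few cells. In VSMC_2 the 29 cells with most UMIs of the gene held 66.2% of its 1593 UMIs, and 1 cell held 84. In fibroblasts the 82 LCWE and 87 PBS cells with most of the gene held 74.0% and 76.4% of it, and the median fibroblast had 0 UMIs in both libraries. By contrast the median granulocyte named eosinophil had 7 UMIs. Cells with Ptgs2 also carried more immediate early and stress gene UMIs (Fos, Fosb, Jun, Junb, Egr1, Atf3, Hspa1a, Hspa1b, a list added after the data were seen): 151.4 per cell with a Ptgs2 UMI and 74.5 without in VSMC_2, and 139.3 and 97.3 in LCWE fibroblasts. They were also deeper, with medians of 24009.5 and 15757 UMIs in VSMC_2, and the part of depth in this difference was not tested.

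**Figure D2:**
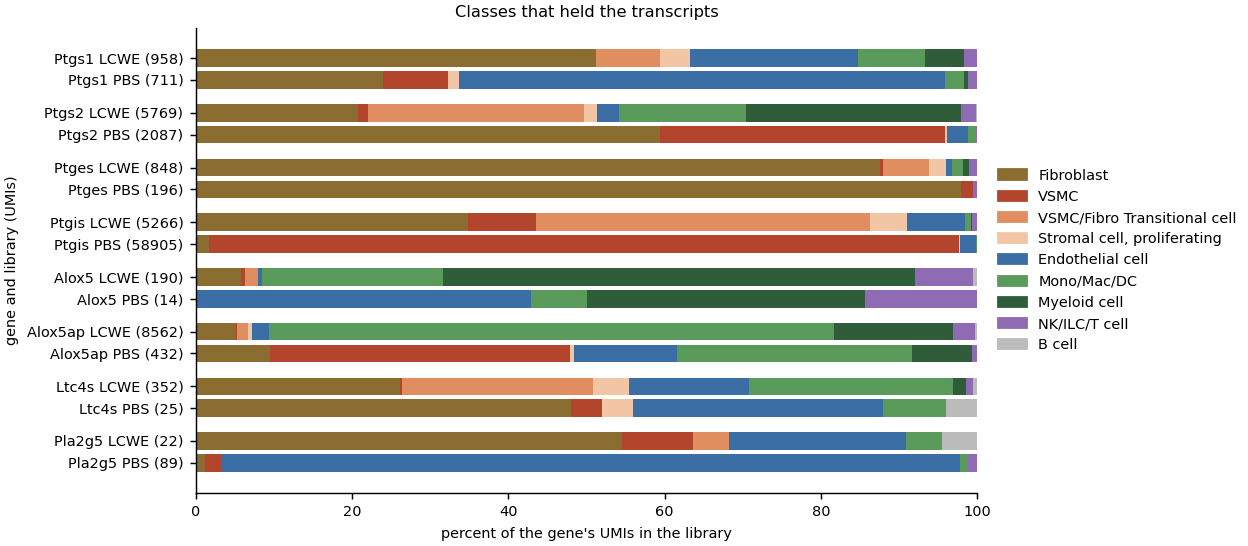
Percent of the UMIs of a gene that each broad class held, by library, with the number of UMIs in brackets. Fibroblasts held 87.6% (LCWE) and 98.0% (PBS) of the Ptges UMIs, smooth muscle cells held 96.1% of the Ptgis UMIs in PBS, and shares depend on how many cells of each class were captured.

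Ptges, the inducible prostaglandin E2 synthase, was a fibroblast gene in both libraries. In PBS, fibroblasts held 98.0% of 196 UMIs, and their level was 31.6 CPM (27.3 to 36.4). In LCWE they held 87.6% of 848 UMIs at 74.4 CPM (69.2 to 80.0), and 388 of 813 cells held a UMI against 153 of 868 in PBS. The next LCWE classes were proliferating VSMC_2 at 16.9 CPM (10.0 to 26.7) and neutrophils and VSMC_2 at 9.11 and 8.64, with overlapping intervals. PBS BEC had 0 UMIs of Ptges, an upper bound of 2.21 CPM. Ptges and Ptgs2, whose products act in sequence, were both seen in 127 LCWE fibroblasts, of 388 with Ptges and 253 with Ptgs2.

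Ptgis, prostacyclin synthase, marked smooth muscle and, in PBS, endothelium. PBS VSMC_1 had 1059 CPM (1050 to 1067), with a UMI in 4124 of 4141 cells and 96.1% of the library's 58905 UMIs. PBS BEC followed at 702 (663 to 744), with 199 of 217 cells, and PBS fibroblasts at 158 (148 to 168). In LCWE, VSMC_1 had 529 CPM (482 to 579) with 59 of 93 cells, VSMC_2 389.5 (374 to 406) with 274 of 283, fibroblasts 183 (175 to 192) and BEC 132 (119 to 145) with 138 of 239. LCWE LEC had 0 UMIs in 88 cells. PBS LEC had 57 UMIs, 20 of them in 1 cell, and the 29 cells of the class held a mean of 86.2 smooth muscle marker UMIs. There the ratio of Ptgis to smooth muscle marker UMIs was 22.8 per 1000, against 23.1 in PBS VSMC_1 and 991.5 in PBS BEC. The 8 PBS LEC with a Ptgis UMI (median total 24494.5 UMIs) held 303.8 smooth muscle marker UMIs per cell. The 21 without one (median total 6758) held 3.33. The source of the Ptgis UMIs in PBS LEC was not tested.

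Ptgds, the lipocalin-type prostaglandin D2 synthase, was scarce, with 23 LCWE and 13 PBS UMIs in all. Of these, 16 LCWE UMIs lay in 11 BEC, a level of 5.38 CPM (3.08 to 8.74), and PBS BEC had 1 UMI. Fibroblasts had 5 LCWE UMIs, all in 1 cell, and 3 PBS UMIs. The remaining PBS UMIs, 9 in all, were in 4141 VSMC_1.

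The secreted phospholipase genes were sparse as well. Pla2g5 had 89 PBS UMIs, of which 84 were in BEC, at 50.4 CPM (40.2 to 62.4) and in 51 of 217 cells. LCWE BEC had 5 UMIs (1.68 CPM, 0.546 to 3.93), LCWE fibroblasts 12 UMIs in 8 cells, and the 283 VSMC_2 had 1 UMI. All 12 of the fibroblast UMIs were in cells with a Chl1 UMI, a transcript found in 481 of the 813 LCWE fibroblasts and in no PBS fibroblast. Pla2g2d had 14 LCWE UMIs, every one in fibroblasts and 13 of them in cells with Chl1, and 1 PBS UMI, in VSMC_1. LCWE fibroblasts with Chl1 were deeper, with median totals of 14431 UMIs against 7502.5 without. Pla2g5 was at 1.72 CPM with Chl1 (lower limit 0.887) and 0 without (upper limit 1.23). Pla2g2d was at 1.86 CPM with Chl1 (lower limit 0.991) and 0.334 without (upper limit 1.86). The intervals of each gene overlap, and the part of depth in these counts was not tested.

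**Figure D3:**
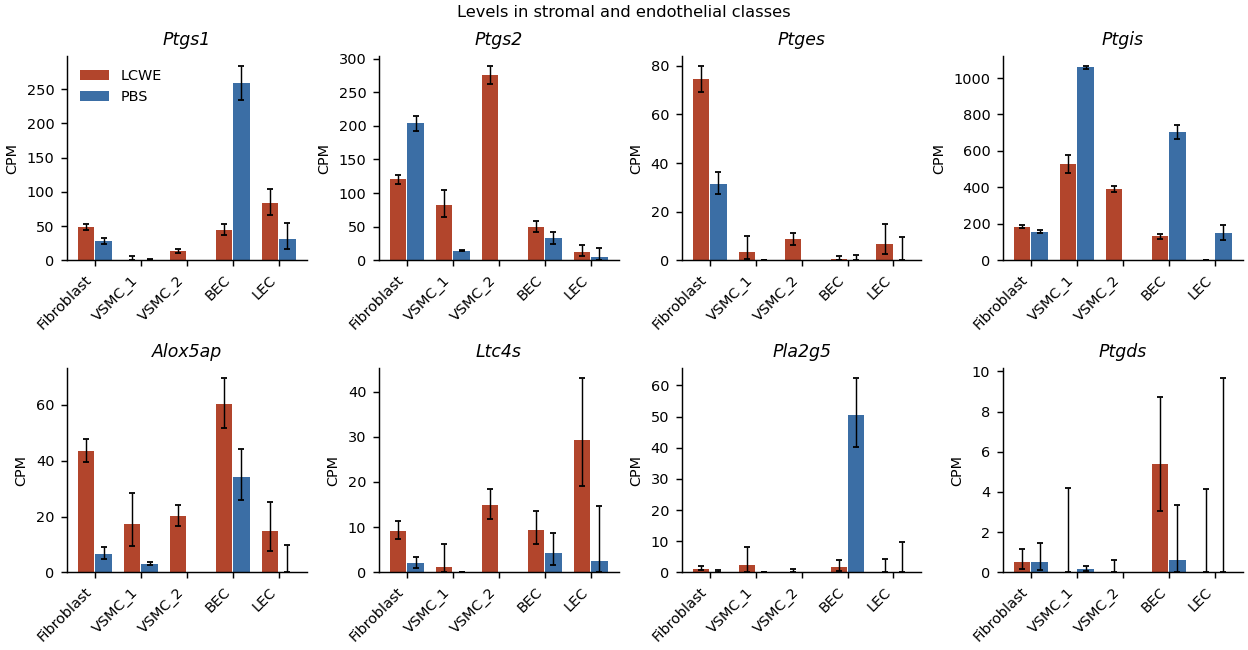
CPM of 8 genes in fibroblasts, smooth muscle (VSMC_1), transitional cells (VSMC_2, LCWE only) and endothelial classes, with exact Poisson 95% intervals as error bars and axes from 0. Ptgs1, Ptgis and Pla2g5 in BEC are lower in LCWE, and Ptges in fibroblasts is higher in LCWE.

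Alox5 and Alox5ap had their highest LCWE levels in myeloid cells. For Ltc4s the highest value was in LEC, with an interval that overlapped those of myeloid classes. Alox5 had 190 LCWE UMIs. Of these, 63 were in neutrophils (115 CPM, 88.2 to 147, in 39 of 62 cells) and 52 in the granulocytes that the authors named eosinophils (76.3 CPM, with a lower limit of 57.0, in 41 of 142 cells), and these intervals overlap. Mono2 had 3 UMIs, Mac1 and DC2 16 each, and T, NK and innate lymphoid cells 14. The PBS library had 14 Alox5 UMIs, 6 of them in 3 BEC and 5 in 3 of its 5 neutrophils.

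Alox5ap was broader among myeloid cells. Its LCWE levels were 1267 CPM in Mono2 (1026 to 1547, 22 cells), 1235 in neutrophils (1144 to 1331), 1081 in Mono1 (1037 to 1126) and 918 in the granulocytes named eosinophils (847 to 993). DC2 at 694, Mac1 at 684 and pDC at 538 came next, and DC3 stood apart from the other dendritic classes at 17.8. A UMI was present in 277 of 281 Mono1 and 269 of 282 Mac1, against 73 of 2198 T, NK and innate lymphoid cells. Monocytes, macrophages and dendritic cells held 72.3% of the 8562 LCWE UMIs. The PBS library had 432 UMIs, of which 166 were in VSMC_1, at 3.11 CPM, and 64 in its 9 Mono1 cells. Alox5ap was in all 62 LCWE neutrophils and in 127 of 142 granulocytes named eosinophils, so nearly every one of these cells with Alox5 also held it.

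Ltc4s was low and spread over unlike cells. LCWE LEC had 29.4 CPM (19.2 to 43.0, 26 UMIs in 15 of 88 cells), Mac1 17.9 (13.4 to 23.4, 39 of 282 cells), VSMC_2 14.9 (11.9 to 18.4, 37 of 283 cells) and fibroblasts 9.21 (7.43 to 11.3, 50 of 813 cells). The fine class Mono/Mac/DC, with 22 cells, had 20.1 CPM (8.69 to 39.6, 8 UMIs). Its interval and those of LEC, Mac1 and proliferating VSMC_2 overlapped one another. The 15 LCWE LEC with a Ltc4s UMI held 0.267 macrophage, 4.93 monocyte and 5.40 neutrophil marker UMIs per cell. The 73 without one, of median total 7145 UMIs against 9749, held 0.123, 0.918 and 0.849. The part of these transcripts in the LEC level was not tested. LCWE neutrophils had 0 Ltc4s UMIs in 62 cells. The PBS library had 25 UMIs in all, 12 of them in fibroblasts and 7 in BEC. Alox5 and Ltc4s were both present in 1 granulocyte named eosinophil and 6 Mac1 cells, so most cells with 5-lipoxygenase transcripts lacked a detected Ltc4s UMI at this depth.

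**Figure D4:**
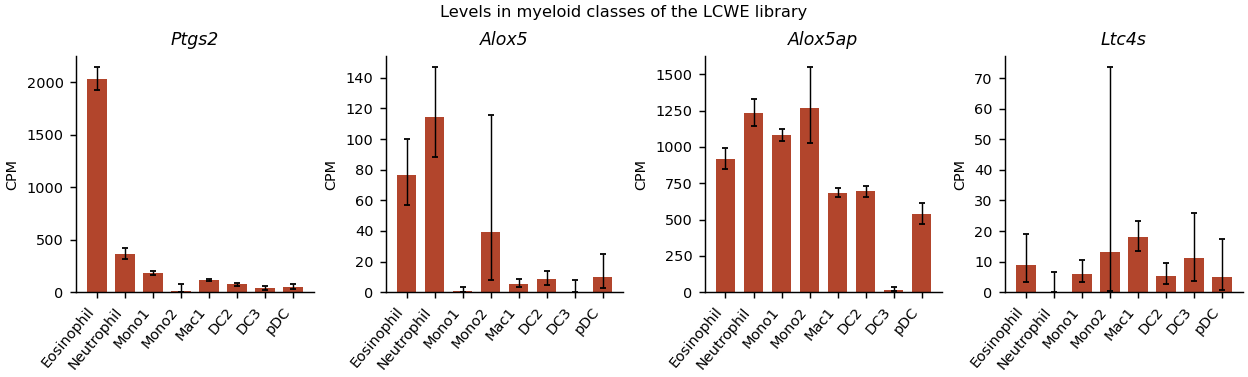
CPM of Ptgs2, Alox5, Alox5ap and Ltc4s in the myeloid classes of the LCWE library with at least 20 cells, with exact Poisson 95% intervals and axes from 0. Alox5ap is lowest in DC3 (17.8 CPM), and Alox5 is highest in neutrophils (115 CPM) and the granulocytes named eosinophils (76.3 CPM).

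Levels within a class were compared between the libraries in the 4 broad classes with at least 50 cells in each. A gene was taken as measured when its UMIs in the class, LCWE and PBS added up, came to 20 or more, and as higher or lower when the CPM values were 2-fold or more apart. Other classes had too few PBS cells: the whole PBS library held 18 monocytes, macrophages and dendritic cells and 6 granulocytes.

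In fibroblasts (813 LCWE and 868 PBS cells), 6 of the 10 genes were measured. Of these, 3 were higher in LCWE, beside 10.4% of all 12357 genes measured, and 0 were lower, beside 7.31%. Alox5ap had 434 LCWE and 41 PBS UMIs, a ratio of 6.45 (4.68 to 9.12). Ltc4s had 92 and 12 UMIs and a ratio of 4.67 (2.55 to 9.37), and Ptges, at 743 and 192 UMIs, had a ratio of 2.36 (2.01 to 2.78). Ptgs1 was 1.76-fold higher (1.47 to 2.10), Ptgis 1.16-fold higher (1.08 to 1.26) and Ptgs2 1.69-fold lower (1.56 to 1.84), short of 2-fold. All 8 immediate early and stress genes were lower in LCWE fibroblasts as well, such as Fos (2403 and 4885 CPM), Junb (1144 and 2703) and Egr1 (2490 and 3858), and their part in the Ptgs2 value was not tested. The median log2 ratio of the 6 genes was 1.03, and that of all genes 0.04. Pla2g2d and Alox5 had 14 and 11 LCWE UMIs and none in PBS, and with Ptgds and Pla2g5 they had too few to be counted.

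The fibroblast values of Alox5ap moved with myeloid markers. The 115 LCWE fibroblasts with an Alox5ap UMI held 5.86 macrophage marker UMIs (C1qa, C1qb, C1qc, Adgre1, Csf1r) and 26.3 neutrophil marker UMIs per cell. The 698 without one held 0.221 and 0.864. Median totals were 16324 UMIs with Alox5ap and 10562 without. Over the whole class, all 5 genes of the macrophage list were present in LCWE fibroblasts, at 1.02 UMIs per cell, and 1 of 5 in PBS, at 0.0887. Among fibroblasts without a macrophage marker UMI the log2 ratio of Alox5ap was 0.96, short of 2-fold, against 2.69 with all cells. The part of these cells in the result was not tested further. For Ltc4s the macrophage values were closer, 1.94 UMIs per cell with and 0.958 without a Ltc4s UMI, at median totals of 17175.5 and 11034.

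Fibroblasts with and without Chl1 were also set apart. Ptges was 80.0 CPM (73.5 to 86.9) in the 481 LCWE fibroblasts with a Chl1 UMI and 61.4 (52.9 to 70.9) in the 332 without one, against 31.6 in PBS fibroblasts, none of which held Chl1. Restricted to cells without Chl1, its log2 ratio was 0.96, just short of 2-fold. Ptgs1 went the other way, at 46.4 and 55.4 CPM, with overlapping intervals. Median depths were 14431 and 7502.5 UMIs, so detection of Chl1 itself depends on depth. LCWE fibroblasts with a Ptgs2 UMI held 11.1 neutrophil marker UMIs per cell and those without held 1.48, at median totals of 13244 and 10562. Ptgs2, at 116 CPM with and 131 CPM without Chl1, was below the PBS level of 204 in both.

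**Figure D5:**
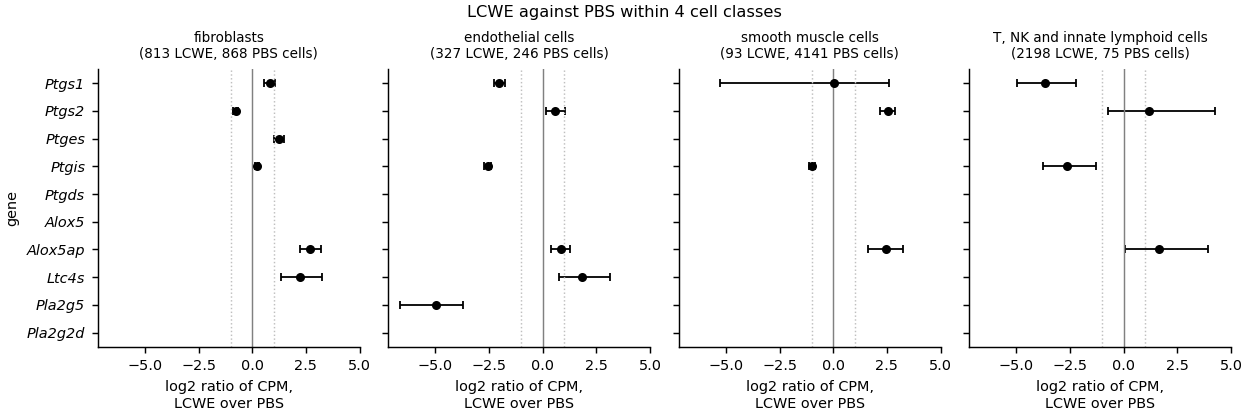
Log2 ratio of CPM, LCWE over PBS, of each measured gene in 4 broad classes, with exact conditional binomial 95% intervals. The solid line is no difference and the dotted lines are 2-fold. Ptgs1, Ptgis and Pla2g5 lie left of the 2-fold line in endothelial cells, and Ptgs2 lies right of it in smooth muscle and left of 0 in fibroblasts.

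In endothelial cells (327 LCWE and 246 PBS cells, of which 88 and 29 were LEC and the rest BEC), 6 genes were measured. Of these, 1 was higher in LCWE, beside 10.2% of 10925 genes, and 3 were lower, beside 5.66%. Pla2g5 was 31.7-fold lower (with a lower limit of 13.0), with 5 LCWE UMIs against 84. Ptgis was 5.92-fold lower (5.27 to 6.64), with 391 against 1227 UMIs. Ptgs1 was 4.05-fold lower (3.43 to 4.81), with 206 against 443 UMIs. In BEC alone Ptgs1 was at 44.4 CPM in LCWE against 259 in PBS. LEC went the other way, at 83.6 against 31.5 CPM, on 74 and 12 of these UMIs. Pla2g5, Ptgis and Ptgs1 stand at the release, prostacyclin and oxygenation steps, but not every gene of those steps was lower. Of the 6 other phospholipase genes measured in this class, 2 were higher and 0 lower. Pla2g4a among them had a ratio of 0.993 (0.631 to 1.59). Ltc4s was 3.58-fold higher (1.69 to 8.71), with 54 against 8 UMIs, of which 26 and 1 were in LEC. Alox5ap was 1.79-fold higher (1.32 to 2.45) and Ptgs2 1.51-fold higher (1.10 to 2.08), both short of 2-fold. Among endothelial cells without a macrophage marker UMI the log2 ratio of Alox5ap was -0.36, against 0.84 with all cells. The 54 LCWE BEC with Alox5ap held 1.98 macrophage marker UMIs per cell and the 185 without held 0.0541, at median totals of 14437 and 9076. The median log2 ratio of the 6 genes was -0.71, against 0.09 for all genes.

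The BEC of the libraries also differed in endothelial markers. Kdr was 147 CPM in LCWE and 4.80 in PBS, Cdh5 1125 and 645, Vwf 1241 and 1263, and Pecam1 1833 and 4028. Of the 8 immediate early and stress genes, 7 were lower in LCWE BEC, among them Fos (1685 and 3342 CPM) and Egr1 (476 and 1044), and Hspa1b was higher. The part of these differences in the values of Ptgs1, Ptgis and Pla2g5 was not tested. A UMI of Sox17, Gja4 or Gja5, arterial endothelial genes chosen after the data were seen, was in 220 of 239 LCWE and 213 of 217 PBS BEC. The 19 LCWE BEC without an arterial UMI held 31 Ptgs1 UMIs (179 CPM, 121 to 254) and 0 Ptgis UMIs. An Ackr1 UMI, a transcript of venular endothelium, was found in 25 LCWE and 0 PBS BEC. Those 25 cells had 124.5 CPM of Ptgs2 (92.1 to 165) against 38.4 (31.2 to 46.7) in the other 214. The values rest on few cells, with 49 UMIs in 8 of the 25 cells and 99 in 29 of the 214. Of all 148 Ptgs2 UMIs in LCWE BEC, 24 cells held 91.2%, and 1 cell held 32.

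Acta2 and Tagln, contractile genes of the smooth muscle list, moved with Ptgis inside LCWE BEC. The 138 LCWE BEC with a Ptgis UMI (median total 11787.5 UMIs) held 36.7 UMIs of the 4-gene list per cell. The 101 without one (median total 7860) held 3.09. In PBS the values were 5.64 and 3.22. Acta2 and Tagln made up nearly all of it, at 1288 and 518 CPM in LCWE BEC against 432 and 226 in PBS. Myh11 and Cnn1 went the other way, at 3.03 and 1.35 CPM in LCWE against 27.0 and 23.4. Leaving out endothelial cells with more than 20 UMIs of the list gave log2 ratios of -2.85 for Ptgis and -1.70 for Ptgs1, in place of -2.56 and -2.02. The endothelial log2 ratio of Ptgs2, 0.59 with all cells, was -0.01 after that step and 0.08 without the 5% of cells with most UMIs.

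In smooth muscle cells (VSMC_1, 93 LCWE and 4141 PBS cells), 4 genes were measured. Of these, 2 were higher in LCWE, beside 12.4% of 12817 genes, and 1 was lower, beside 5.56%. Ptgs2 was 5.77-fold higher (4.47 to 7.36), at 82.4 CPM against 14.3. Its 72 LCWE UMIs came from 12 of 93 cells, 23 of them from 1 cell, while 305 of 4141 PBS cells held a UMI. Ptgis was 2.00-fold lower (1.83 to 2.20), right at the threshold. Alox5ap was 5.53-fold higher (3.03 to 9.39), on 15 LCWE UMIs in 9 cells. Ptgs1 had 1 and 59 UMIs and a ratio of 1.04 (0.0258 to 6.01), which leaves its direction unresolved. The median log2 ratio of the 4 genes was 1.26, against 0.00 for all genes, and 2.05 against 0.12 with sums under 3 UMIs raised to 3.

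Values that move with the smooth muscle results were these. LCWE VSMC_1 held 2.48 neutrophil marker UMIs per cell (5 of 5 genes present) and PBS VSMC_1 0.0362. The 12 LCWE VSMC_1 with a Ptgs2 UMI held 12.4 of them and 4.25 macrophage marker UMIs per cell, and the 81 without held 1.012 and 0.185. The same 12 cells held 65.6 fibroblast marker and 139 immediate early and stress UMIs per cell, and the 81 held 11.0 and 68.9. Median totals were 12385 UMIs in the 12 cells and 8339 in the 81. The 9 LCWE VSMC_1 with Alox5ap held 6.78 macrophage marker UMIs per cell and the other 84 held 0.0595, with median totals of 14445 and 8401. For Ptgis, the 59 LCWE VSMC_1 with a UMI held 510.8 smooth muscle marker UMIs per cell, and the 34 without held 102.6, with median totals of 10754 and 4368.5. Per 1000 smooth muscle marker UMIs, Ptgis stood at 13.7 in LCWE VSMC_1, 23.1 in PBS VSMC_1 and 34.0 in VSMC_2. The part of these differences in the ratios was not tested.

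In T, NK and innate lymphoid cells (2198 LCWE and 75 PBS cells), 4 genes were measured. Of these, 2 were higher in LCWE, beside 7.29% of 10602 genes, and 2 were lower, beside 7.97%. All 4 rest on few PBS UMIs. Ptgs1 (16 and 8 UMIs) was 12.8-fold lower (4.73 to 31.6) and Ptgis (33 and 8 UMIs) 6.19-fold lower (2.47 to 13.7). Alox5ap (238 and 3 UMIs) was 3.11-fold higher (1.05 to 15.2) and Ptgs2 (115 and 2 UMIs) 2.25-fold higher (0.609 to 18.8). Each direction here is that of the gene's level in the library as a whole, apart from Ptgs1. Whole-library ratios of LCWE over PBS were 0.132 for Ptgis, 29.4 for Alox5ap, 4.09 for Ptgs2 and 2.00 for Ptgs1. Of the 8 PBS UMIs of Ptgs1, 5 were in 1 NK cell. At 1.54, 3.18, 22.9 and 11.1 CPM in LCWE for Ptgs1, Ptgis, Alox5ap and Ptgs2, these levels were far below the highest class of each gene.

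Other genes of the pathway were read from a list of 52, covering further phospholipases, synthases, leukotriene enzymes, transport and breakdown, and receptors. In fibroblasts 33 were measured, and 8 were higher and 3 lower in LCWE, with a median log2 ratio of 0.17, beside 10.4% and 7.31% of all genes and a median of 0.04. In endothelial cells 24 were measured (5 higher, 1 lower, median 0.15, beside 10.2%, 5.66% and 0.09 for all genes), in smooth muscle cells 27 (7 higher, 0 lower, median 0.33, beside 12.4%, 5.56% and 0.00) and 27 in the T, NK and innate lymphoid class (2 higher, 3 lower, median -0.06, or -0.25 with small sums raised to 3 UMIs, beside 7.29%, 7.97% and -0.01, or -0.19). None of the other prostanoid synthases that were measured, Ptges2 and Ptges3 among them, differed 2-fold in fibroblasts (0 of 5), endothelial cells (0 of 5) or smooth muscle cells (0 of 5).

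In fibroblasts the phospholipase gene Pla2g7 was 6.58-fold higher (2.65 to 21.1) and Ggt5 and Dpep2, genes of peptidases that trim cysteinyl leukotrienes, were 3.06-fold (2.57 to 3.67) and 8.41-fold (3.44 to 26.7) higher. Dpep1, which encodes another dipeptidase, was 3.59-fold lower, at 138 CPM against 495. Slco2a1, the prostaglandin importer, was 8.58-fold higher (4.99 to 16.0), and Hpgd, which inactivates prostaglandins, was 5.95-fold lower, on 24 and 87 UMIs. The receptors of the list were mixed. Ptger3 and Ltb4r1 were 6.60-fold and 4.88-fold higher, and Ptgfr was 3.52-fold lower. Mgst2 had 19 and 1 UMIs, and Cyp4f18, which acts on leukotriene B4, had 91 and 0. With the PBS sum of Cyp4f18 set to 3 UMIs its ratio was 18.5, and the lower limit of its interval as counted was 14.7. Several of these genes had far higher levels in LCWE myeloid cells, where Pla2g7 reached 281 CPM (Mono1), Dpep2 237.5 (Mac1), Ltb4r1 211 (neutrophils) and Cyp4f18 696.5 (granulocytes named eosinophils), against 5.41, 6.91, 4.01 and 9.11 in LCWE fibroblasts. LCWE fibroblasts held 1.02 macrophage and 4.46 neutrophil marker UMIs per cell, and PBS fibroblasts 0.0887 and 0.0207. The part of these transcripts in the ratios was not tested.

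Pla2g6, Pla2g7, Ptgr1, Cyp4f18 and the thromboxane receptor gene Tbxa2r were higher in LCWE endothelial cells. Tbxa2r had 83 LCWE and 18 PBS UMIs and was 2.45-fold higher (1.46 to 4.33), Pla2g6 was 3.24-fold higher (1.65 to 7.09) and Mgst3 was 2.76-fold lower, at 145 CPM against 399. Pla2g7, Ptgr1 and Cyp4f18 had 2, 4 and 1 PBS UMIs. LCWE BEC held 0.490 macrophage and 2.36 neutrophil marker UMIs per cell, against 0.00461 and 0.0553 in PBS, and their part in these ratios was not tested. In smooth muscle the higher genes were Ggt5, Ephx2, Slco2a1, Abcc4, Ptger4, Ptgir and Cysltr1, on 13, 2, 14, 1, 7, 6 and 3 LCWE UMIs. In T, NK and innate lymphoid cells Mgst2 (389 and 4 UMIs) and Ptges2 (74 and 1) were higher, and Mgst3, Fam213b and Ltb4r1 were lower, on 5, 3 and 15 PBS UMIs. Leukotriene A4 hydrolase, Lta4h, the gene of the enzyme that makes leukotriene B4, was measured in all 4 classes and differed less than 2-fold in each.

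The receptor genes with most UMIs were, in LCWE, the prostaglandin E2 receptor Ptger4 (1295), the leukotriene B4 receptor Ltb4r1 (1049), Tbxa2r (562) and Cysltr1 (393). Ptger4 was highest in DC3 (207 CPM), Ltb4r1 in neutrophils (211), Tbxa2r in pDC (84.5) and Cysltr1 in DC2 (49.5). In PBS they were Tbxa2r (2808) and Ptger3 (1717), both with most UMIs in VSMC_1, then Ptger4 (215) and Ptgfr (165).

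For the 6 members with at least 300 UMIs, the genes of most similar pattern were ranked by the correlation of log2(CPM + 1) over 29 points, each a class of at least 20 cells in 1 library. The points share libraries, depth and free RNA, so the coefficients are descriptions. Ptgs1 was nearest to Fam63a, Ramp2 and Tek (0.85, 0.84 and 0.84), the last a receptor of endothelial cells. Ptges was nearest to Ildr2, Dnm1 and Dcn (0.91, 0.87 and 0.87), of which Dcn encodes the fibroblast proteoglycan decorin. Ptgis was nearest to Gstm2, Gm15867 and Phactr1 (0.94, 0.93 and 0.93), and Alox5ap to Cd300a, Itgam and AF251705 (0.93, 0.93 and 0.92), where Itgam is the myeloid integrin CD11b. Ptgs2 had looser neighbours in Rabgef1, Olr1 and Gabarap (0.78, 0.75 and 0.74), as did Ltc4s in Lgmn, Slc7a7 and Marcks (0.83, 0.79 and 0.78). Among the members themselves, Alox5 and Alox5ap had the closest pattern of the 45 pairs (0.75).

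The genes lie apart in the genome (GRCm38), with exceptions. Ptgds, Ptges, Ptgs1 and Ptgis are on chromosome 2, and Pla2g2d (138775735 to 138782046) and Pla2g5 (138799244 to 138863482) lie close together on chromosome 4 on opposite strands. Ptgs2 is on chromosome 1, Alox5 on 6, Alox5ap on 5 and Ltc4s on 11. Antisense genes that overlap members were scarce in the files, with 14 UMIs for Gm14291 (Ptgis), 41 for Gm19719 (Alox5ap) and 45 for Gm26542 (Ltc4s), against 377 for Ltc4s itself.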

How the data were processed

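The authors deposited 1 table of UMI counts per gene and cell for both libraries, not normalized, with their class names and a percent of mitochondrial UMIs per cell, also computed by the authors. Cell Ranger 3.0.2 and mm10 are named in the submitters' processing notes, and strand setting and cell filters are not given in the sources used here. The authors' calls mark no listed cell as dead or doublet, no doublet caller was run, and their doublet score was not used.

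UMI counts were summed over the cells of each class and library (Python 3.11.15, numpy 2.4.6, scipy 1.17.1, pandas 2.3.3, figures with matplotlib 3.10.9). The intended floor of 3 UMIs on every small sum created differences between classes of unequal size, so ratios are as counted, only a sum of 0 was set to 3, and the floor on all sums under 3 became an alternative. For equal depth each cell was thinned to 1600 UMIs. The ratio, its interval and the 2-fold call were tested on simulated Poisson sums with known fold changes. Such sums hold no spread between cells, so the test does not show how the intervals behave on concentrated counts. Alternatives were the mean CPM over cells, cell filters, thresholds, other totals and other subsets of cells.

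All 10 genes were described. Other pathway genes were named when at least 2-fold apart in a compared class with at least 100 UMIs in all, besides the 4 receptors with most UMIs in each library. The genes and lists were chosen with earlier results of these data known.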

Additional observations from a re-analysis of the deposited data

Results flagged for a closer look

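Ptgs1, Ptgs2 and Ptgis had log2 ratios of LCWE over PBS of opposite sign in different classes. With 1 library a group, the differences between classes were not tested. For Ptgs1 the log2 ratio was 0.81 in fibroblasts, -2.02 in endothelium and -3.67 in the lymphoid class (T, NK and innate lymphoid). For Ptgs2 it was -0.76 in fibroblasts, 0.59 in endothelium and 2.53 in smooth muscle. For Ptgis it was 0.22 in fibroblasts, -2.56 in endothelium, -1.0 in smooth muscle and -2.63 in the lymphoid class. The lymphoid values rest on 8 PBS UMIs for Ptgs1 and 8 for Ptgis. The smooth muscle value of Ptgs2 rests on 72 LCWE UMIs in 12 of 93 cells. Its endothelial value shrank to almost no difference when cells rich in smooth muscle markers, or the cells with most UMIs, were left out.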

How the results depend on the processing

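Of 64 recomputed counts of members, 53 stayed within 1.5 times the value given, as did 18 of 24 pathway counts. Of 164 member ratios, 145 were counted as unchanged. Ratios called higher or lower had to keep that call. Ratios short of 2-fold had to stay so, inside the interval given. That interval can span both directions, as for Ptgs1 in smooth muscle (0.0258 to 6.01). Of the others, 10 called ratios fell short of 2-fold, 1 called ratio changed sign and 2 uncalled ratios reached 2-fold. A further 6 uncalled ratios were counted as moved, among them Ptgs2 in fibroblasts without a Chl1 UMI (log2 ratio -0.64, from -0.76). Of the members' levels 7 of 40 moved by more than their interval, and of the shares of cells with a UMI 8 of 20, all 8 between 1600 and 3000 UMIs per cell. Requiring at least 100 UMIs left 2 pathway genes higher in fibroblasts, 0 members and 1 pathway gene higher in endothelial cells, 0 pathway genes higher in smooth muscle, and 0 members lower, 1 pathway gene higher and 1 lower in T, NK and innate lymphoid cells. With the mean of each cell's CPM, 2 pathway genes were lower in endothelial cells, 2 members lower in smooth muscle and 1 member higher in the lymphoid class. The 1 member lower in smooth muscle, Ptgis, was close to 2-fold: 0 were lower without cells over 10% mitochondrial UMIs (log2 ratio -0.79), with mitochondrial and ribosomal genes out of the total (-0.97), or, an alternative chosen after seeing the data, without macrophage marker cells (-0.97). In the lymphoid class, leaving out the 5% of cells with most UMIs gave 0 members higher and 1 lower and turned Alox5ap to -0.21 from 1.63. There, raising sums under 3 UMIs to 3 gave 1 member higher, and leaving out macrophage marker cells gave 0, both chosen after seeing the data. Fewer genes enter at 100 UMIs, and the other causes were not tested. No paired analysis was possible because each group is 1 pooled library.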
